A study of Mus musculus with 5 samples.

Results

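Acod1, Ass1, Nos2, Arg1, Sod2, Cybb, Cyba, Ncf1 and Ncf4 are genes with which macrophages make itaconate, handle arginine and produce or remove superoxide. They were read from a table of RNA sequencing counts of mouse brain microglia by matching Ensembl identifiers to GRCm38 symbols. All 9 were found among the 41388 genes of the table, and 8 of them held enough counts to be tested. The libraries came from eYFP-positive cells sorted from papain-digested brain of C57Bl/6 mice aged 4 weeks that had received 2 mg tamoxifen on postnatal days 14 and 16. The control group, with 2 libraries, had the genotype eYFP-A20fl/wt Cx3cr1-CreERT2/+, with 1 floxed and 1 wild-type allele of A20 (Tnfaip3), an enzyme that edits ubiquitin chains and thereby dampens NF-kB signalling. These control microglia are themselves labelled partially deficient. The A20 deletion group, with 3 libraries, had the genotype eYFP-A20Dmg and is labelled fully deficient. The inducible Cre is driven from the Cx3cr1 locus, which is also active in other mononuclear phagocytes. Separate animals are not stated for the libraries of a group, so p-values measure only the spread between these samples, and part of that spread may be technical.

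Acod1 makes itaconate from an intermediate of the tricarboxylic acid cycle, and itaconate inhibits succinate dehydrogenase and has antibacterial activity. Nos2 (inducible nitric oxide synthase) and Arg1 (arginase) compete for arginine. Ass1 (argininosuccinate synthase) takes part in remaking arginine from the citrulline that Nos2 releases. Cybb (gp91phox, the catalytic chain) and Cyba (p22phox) form the membrane part of the phagocyte NADPH oxidase, which makes superoxide when the cytosolic subunits, such as those encoded by Ncf1 (p47phox) and Ncf4 (p40phox), and a Rac GTPase join it. Sod2 converts superoxide into hydrogen peroxide inside mitochondria.

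Total counts lay between 9726334 and 15275199 per library, and a count of 3, taken as the floor, corresponded to between 0.192 and 0.306 CPM (counts scaled to a common library total with TMM factors, the trimmed mean of M values). Tnfaip3, the targeted gene, had 454.1 and 94.75 CPM in the controls against 294.6, 276.9 and 347.5 CPM in the A20 deletion libraries. It did not pass the test (edgeR adjusted p = 0.881), and counts over whole genes do not check which exons were removed. A20 deletion replicates 2 and 3 stood apart, with 4.63% and 3.56% of counts from mitochondrially encoded genes against 0.847% to 1.19% in the other libraries. They also held fewer counts of long genes: tested genes with merged exons above the median length held 37.8% and 38.5% of counts there and 44.9% to 48% elsewhere. Xist was counted in control replicate 1 and A20 deletion replicate 1 (780 and 616 counts) and not in the other libraries (0 counts). The 10 microglia markers summed to 53174 and 58593 CPM in the controls and to 38066 to 42792 CPM in the A20 deletion libraries, and none was at 0. In bulk RNA, fewer cells of a type and less RNA per cell cannot be told apart.

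In the A20 deletion libraries Acod1, Ass1 and Cybb rose, and none of the 9 genes fell. Over all 12240 tested genes 2.08% were higher and 0.507% lower by the same test (edgeR quasi-likelihood, Benjamini-Hochberg adjusted p under 0.05). Cyba and Ncf4 were higher in every A20 deletion library than in both controls but did not pass. Sod2 and Ncf1 lay at closely similar levels in both groups, Arg1 was a few counts above the floor everywhere, and Nos2 was at 0 in 4 of 5 libraries and was not tested. In 5 of the 8 tested genes the groups did not overlap, always with the A20 deletion higher, against 21.8% of all tested genes. Acod1 and Ass1 passed the filter on low counts only through the A20 deletion libraries, so they had to differ, and the counts of members that passed support nothing.

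**Figure D1:**
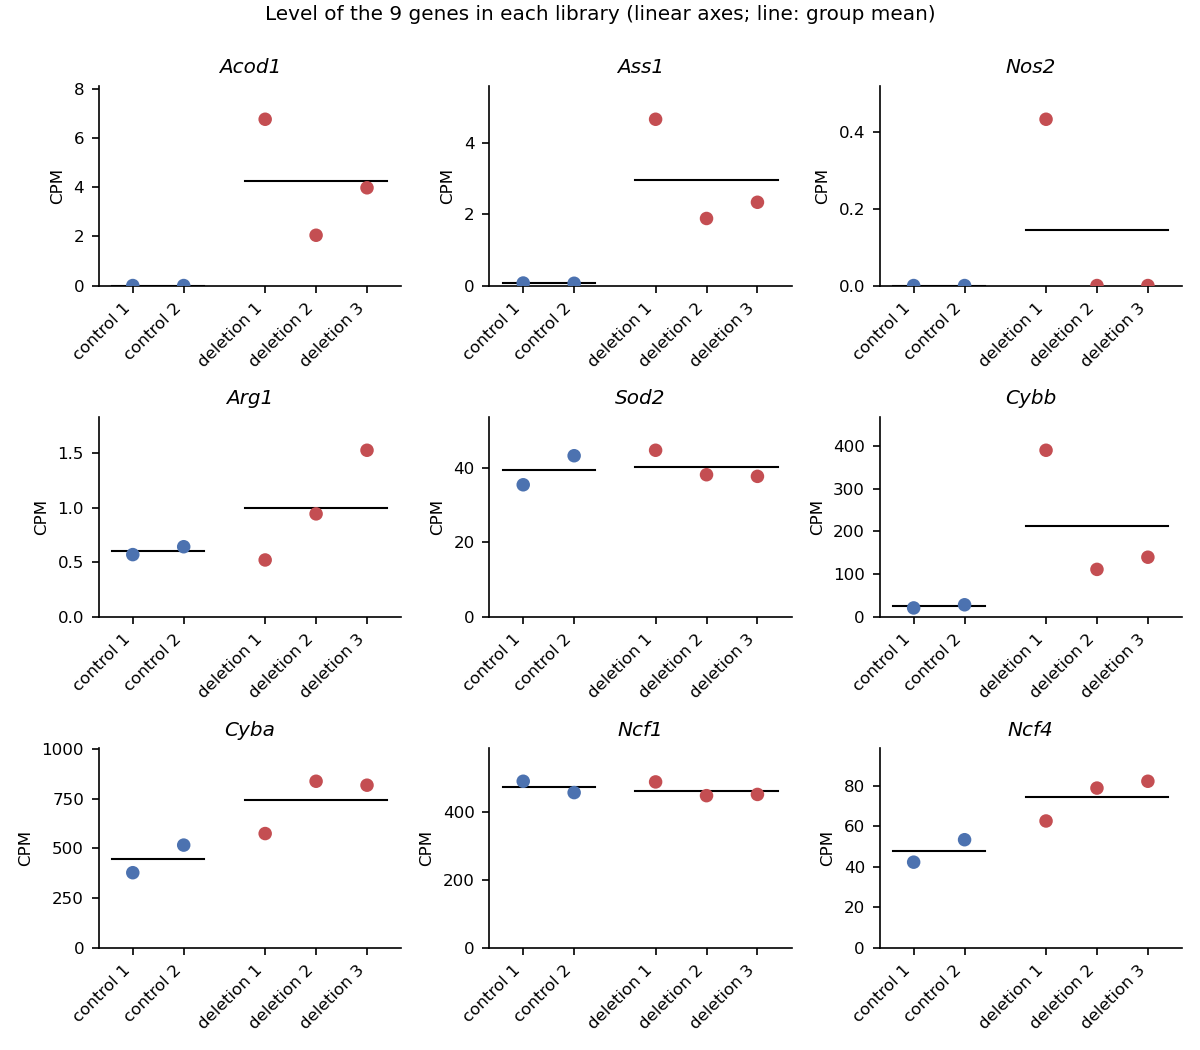
CPM (vertical axes, linear, each from 0) of the 9 genes in each of the 2 control (blue) and 3 A20 deletion (red) libraries, with the group mean as a line. Acod1, Ass1 and Cybb were highest in A20 deletion replicate 1 and low or absent in both controls, while Ncf1 and Sod2 lay at the same height in both groups.

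Acod1 (ENSMUSG00000022126, GRCm38 chromosome 14, 103046977 to 103056573) was not detected in the controls and was detected in every A20 deletion library. It had 0 and 0 counts in the controls and 78, 26 and 39 counts in A20 deletion replicates 1, 2 and 3. These correspond to 6.76, 2.04 and 3.97 CPM. All 3 A20 deletion libraries were above the floor, and replicate 1 was 2.25 times the mean of replicates 2 and 3. With the counts of each group pooled, Acod1 was at 41.5 times a floor of 3 counts over both controls together. This ratio has no interval and leaves out the spread between libraries. The edgeR adjusted p was 0.0277. The reads carry no molecular identifiers and cannot be counted as separate molecules.

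Ass1 (ENSMUSG00000076441, chromosome 2, 31470207 to 31520672) followed the same order of libraries. It had 1 count in each control and 54, 24 and 23 counts in A20 deletion replicates 1, 2 and 3, or 4.68, 1.89 and 2.34 CPM. The controls were below the floor and the A20 deletion libraries above it. The ratio of pooled counts was 43.9 with an exact 95% interval of 11.9 to 368, for counting error only, and the edgeR adjusted p was 0.0302. A20 deletion replicate 1 was 2.21 times the mean of replicates 2 and 3. Neither gene is abundant: their highest values, 6.76 and 4.68 CPM, can be set beside the 38.1 to 837 CPM that Sod2, Ncf1, Cyba, Ncf4 and Cybb reached in A20 deletion replicate 2, on a scale not corrected for length.

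The DNA before the annotated starts of Acod1 and Ass1 is shown because both were near or at 0 in the controls and present in every A20 deletion library. Sequences are from RefSeq (GRCm38.p6), on the gene's strand, and stop before the first base that the GENCODE M21 exons of the gene cover. Promoter windows were matched for 6 of the 9 genes (not for Nos2, Arg1 and Ncf4). In the 250 bases before each RefSeq start, on both strands, 9 motifs were searched. For NF-kB these were a loose form, GGGA and CC with 4 free bases between them, a stricter form, GGGA, 1 free base and TTTCC, and the strictest with C as that base. For the interferon-stimulated response element it was GAAA repeated after 2 free bases. The others were TTCNNNGAA for STAT (the gamma-activated site), TGANTCA for AP-1, TTGCNNAA for C/EBP, TGACNNNGC for the antioxidant response element and GAGGAA for PU.1. Capitals mark every match, and a match is a description of letters, not a site.
Acod1, chr14:103046762-103046976, + strand: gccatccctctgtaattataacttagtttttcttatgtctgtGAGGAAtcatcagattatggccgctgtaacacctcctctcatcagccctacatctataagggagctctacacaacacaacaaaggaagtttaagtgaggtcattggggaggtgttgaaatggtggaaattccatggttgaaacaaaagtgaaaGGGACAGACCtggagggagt
Ass1, chr2:31470020-31470206, + strand: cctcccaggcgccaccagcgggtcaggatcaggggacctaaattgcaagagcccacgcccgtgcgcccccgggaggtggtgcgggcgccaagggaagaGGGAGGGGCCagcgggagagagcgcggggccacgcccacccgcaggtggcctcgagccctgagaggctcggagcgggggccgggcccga
The Acod1 window held GAGGAA (bases -208 to -203 from the RefSeq start) and the loose NF-kB form (-55 to -46). The Ass1 window held the loose NF-kB form only (-152 to -143). Of 32851 RefSeq promoter windows of the same length 17.6% held the loose NF-kB form and 23.3% held GAGGAA. The stricter form (0.356% of windows) and the strictest (0.14%) were in none of the 6 windows.

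Nos2 and Arg1, the enzymes that draw on the same arginine, were barely counted. Nos2 (ENSMUSG00000020826, chromosome 11, 78920787 to 78960254) had 0 counts in both controls and in A20 deletion replicates 2 and 3, and 5 counts (0.433 CPM) in replicate 1. It was above the floor in that library only. The groups overlapped, and these counts allow no statement on a difference. Arg1 (ENSMUSG00000019987, chromosome 10, 24915221 to 24927484) had 8 and 10 counts in the controls and 6, 12 and 15 counts in the A20 deletion libraries. The group levels were 0.605 ± 0.0512 and 0.997 ± 0.506 CPM (SD, n = 2 and 3), the groups overlapped, and A20 deletion replicate 1 was the lowest library. Its log2 fold change of 0.70 (SE 0.75) did not pass (edgeR adjusted p = 0.599). At this depth a change of Arg1 of that size was not detectable.

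Among the oxidase genes Cybb changed most. Cybb (ENSMUSG00000015340, chromosome X, 9435252 to 9487771) had 20.2 and 27.6 CPM in the controls (284 and 430 counts). In A20 deletion replicates 1, 2 and 3 it stood at 389.7, 110.5 and 139 CPM (4498, 1406 and 1365 counts). The groups did not overlap: the lowest A20 deletion library was far above both controls, and replicate 1 was 3.12 times the mean of the others. The group levels were 23.9 ± 5.22 and 213.1 ± 153.6 CPM (SD, n = 2 and 3), an 8.91-fold difference (log2 3.16, SE 0.59, edgeR adjusted p = 0.0453). Between the libraries with Xist counts the ratio was 19.3, and between the libraries without them it was 4.01 and 5.04. With a term for Xist the edgeR adjusted p was 0.0112 (log2 3.02), in a fit that was added after the data were seen and called 6.73% of genes.

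The calls depended on which libraries were kept and on the tool. Without A20 deletion replicate 1, in a fit that called 32.4% of all genes, Acod1, Ass1 and Cybb all passed by edgeR. All of them also passed without A20 deletion replicate 2, in a fit that called 178 of 11672 genes. None of Acod1, Ass1 and Cybb passed by edgeR when control replicate 1, control replicate 2 or A20 deletion replicate 3 was left out, in fits that called 0.139%, 0% and 0.769% of all genes. Over these 3 fits the highest adjusted p was 0.218 for Acod1, 0.322 for Ass1 and 0.348 for Cybb. By limma-voom, which called 1.72% of genes, the adjusted p was 0.0958, 0.135 and 0.0506, and in a robust edgeR fit, which called 2.77%, Cybb alone of the 3 did not pass (adjusted p = 0.0684). A20 deletion replicate 1 set the size for Cybb, whose log2 fold change was 2.36 without it and 4.04 with replicates 2 and 3 left out instead, a fit that called 3.28% of genes.

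Cyba and Ncf4 differed less and in another order of libraries. Cyba (ENSMUSG00000006519, chromosome 8, 122424776 to 122432930) had 376.9 and 515.9 CPM in the controls against 574, 837.4 and 817.5 CPM in A20 deletion replicates 1, 2 and 3. The groups did not overlap, but replicate 1 lay close to control replicate 2. The fold was 1.66 (446.4 ± 98.3 against 743 ± 146.7 CPM, SD, n = 2 and 3; log2 0.73, SE 0.23) and did not pass (edgeR adjusted p = 0.156). Ncf4 (ENSMUSG00000071715, chromosome 15, 78244801 to 78262580), whose protein binds a phosphoinositide of the phagosome membrane, stood at 42.3 and 53.4 CPM in the controls against 62.6, 78.9 and 82.3 CPM in the A20 deletion libraries. Its fold was 1.56 (47.8 ± 7.86 against 74.6 ± 10.5 CPM; log2 0.64, SE 0.20, edgeR adjusted p = 0.153).

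Both genes are short, with 1039 and 2020 bases of merged exons against a median of 4427 over the tested genes, and both were highest in A20 deletion replicates 2 and 3, the libraries with fewer counts of long genes. After removal of each library's trend with exon length, chosen after the data were seen, the log2 fold change was 0.15 for Cyba (adjusted p = 0.573) and 0.36 for Ncf4 (adjusted p = 0.226). In the same fit, which called 2.76% of genes, Cybb, with 5808 bases, was at 3.21 (adjusted p = 0.0352), Acod1 at 8.73 and Ass1 at 5.12. Without A20 deletion replicate 1 both Cyba (adjusted p = 0.00655) and Ncf4 (adjusted p = 0.00969) passed, in a fit that called 32.4% of all genes. With a term for Xist Cyba passed (adjusted p = 0.037) and Ncf4 did not (adjusted p = 0.0527).

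Ncf1, the organizer that carries the other cytosolic subunits to the membrane, showed no detectable difference. Ncf1 (ENSMUSG00000015950, chromosome 5, 134220053 to 134229625) had 489.6 and 456.2 CPM in the controls against 487.7, 447.2 and 450.8 CPM in the A20 deletion libraries. The groups overlapped, and the 5 libraries spanned a narrow range. Its log2 fold change of -0.03 (SE 0.15) did not pass (edgeR adjusted p = 0.907). Gtf2ird2 on the opposite strand shares 408 exon bases with Ncf1, and the strand setting of the counting is not given. Gtf2ird2 had 306 to 626 counts and Ncf1 had 4426 to 7112, and how reads in the shared bases were assigned was not tested.

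**Figure D2:**
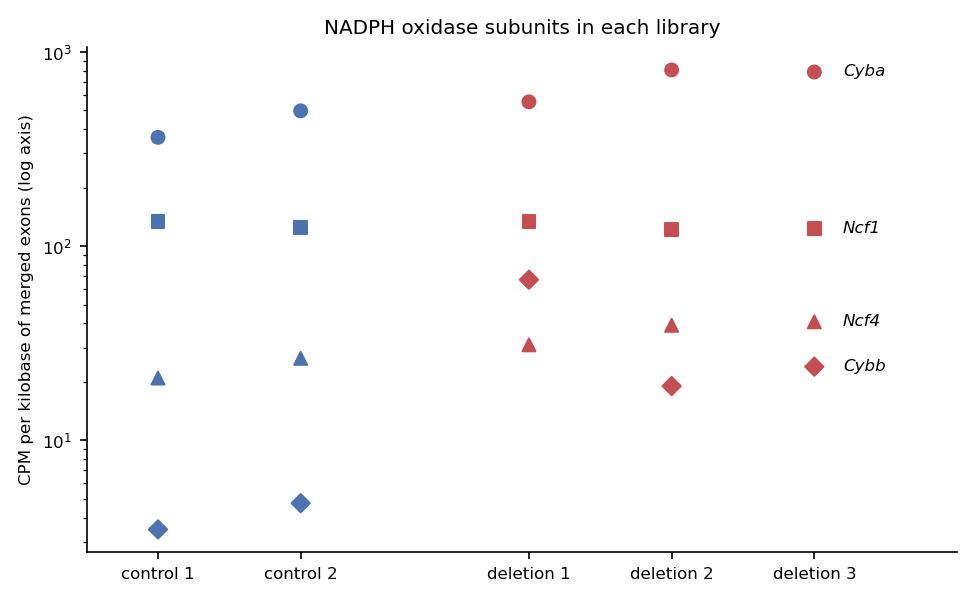
CPM per kilobase of merged exons (vertical axis, logarithmic) of Cyba (circles), Ncf1 (squares), Ncf4 (triangles) and Cybb (diamonds) in each control (blue) and A20 deletion (red) library. Cybb was the lowest of the 4 in both controls, at 3.48 and 4.75. It stood at 67.1, 19 and 23.9 in A20 deletion replicates 1, 2 and 3, and was still the lowest in replicates 2 and 3. Ncf1 stayed between 122 and 134.

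Ratios between subunit transcripts are described for each library and were not tested. Per kilobase of merged exons, Cybb was the lowest of the 4 oxidase members in the controls and in A20 deletion replicates 2 and 3. Only in replicate 1 did it lie above Ncf4 (67.1 against 31 CPM per kilobase). Cyba exceeded Cybb 104-fold and 105-fold in the controls, and 8.23-fold, 42.4-fold and 32.9-fold in A20 deletion replicates 1, 2 and 3. Ncf1 exceeded Cybb 38.4-fold and 26.2-fold in the controls, and 1.98-fold, 6.42-fold and 5.14-fold in the A20 deletion libraries. The groups did not overlap in either ratio. Single genes were separate in 1 direction or the other in 40.2% of all tested genes, and no share over other gene pairs was computed. The groups were also separate, by narrow margins, in 2 ratios without Cybb. Ncf1 exceeded Ncf4 6.39-fold and 4.71-fold in the controls, and 4.29-fold, 3.12-fold and 3.02-fold in the A20 deletion libraries. Cyba exceeded Ncf1 2.71-fold and 3.99-fold in the controls, and 4.15-fold, 6.6-fold and 6.39-fold in the A20 deletion libraries. Cyba and Ncf4 kept to each other more closely, at a ratio between 17.3 and 20.6 in all 5 libraries. Merged exon lengths include bases of all annotated isoforms, so the size of each ratio is approximate. Dividing by them does not alter its order across libraries. A20 deletion replicates 2 and 3 held fewer counts of long genes, and the paired genes differ in length. Cyba has 1039 bases, Ncf4 2020, Ncf1 3663 and Cybb 5808. The part of this in the ratios was not tested.

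The DNA before the starts of Cybb and Ncf1 is shown because these subunits of 1 enzyme complex behaved differently in the same libraries. Build, strand and capitals are as for Acod1 and Ass1. The Cybb window precedes the RefSeq start at 9469324, where 1 of the 5 GENCODE transcripts also begins. The gene's outermost start, 9487771, belongs to another transcript and lies 18447 bases farther upstream, so the window is inside the annotated gene.
Cybb, chrX:9469325-9469574, - strand: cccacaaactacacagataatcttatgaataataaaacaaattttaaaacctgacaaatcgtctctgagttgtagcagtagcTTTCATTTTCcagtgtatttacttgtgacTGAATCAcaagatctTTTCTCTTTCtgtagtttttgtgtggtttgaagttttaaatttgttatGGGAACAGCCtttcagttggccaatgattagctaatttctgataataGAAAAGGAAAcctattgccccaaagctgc
Ncf1, chr5:134229626-134229875, - strand: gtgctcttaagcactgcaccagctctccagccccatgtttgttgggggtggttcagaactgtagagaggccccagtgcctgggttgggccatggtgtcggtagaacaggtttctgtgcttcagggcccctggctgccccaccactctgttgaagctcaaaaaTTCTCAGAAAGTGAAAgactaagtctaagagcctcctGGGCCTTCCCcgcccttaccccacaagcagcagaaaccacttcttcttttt
The Cybb window held the interferon-stimulated response element 3 times, as the reverse complement at -168 to -159 and -124 to -115 and as printed at -29 to -20. It also held TGANTCA (-139 to -133) and the loose NF-kB form (-76 to -67). The Ncf1 window held the interferon element once (-82 to -73), overlapping a TTCNNNGAA match (-88 to -80), and the loose NF-kB form as the reverse complement (-51 to -42). Of all windows 2.98% held the interferon element, 7.02% TTCNNNGAA and 6.75% TGANTCA. The interferon element and the loose NF-kB form thus occurred before both genes, the one that changed and the one that did not pass. The Cyba window held the loose NF-kB form (-231 to -222), and the Sod2 window held GAGGAA (-203 to -198) and TTCNNNGAA (-185 to -177). Of the 8 GENCODE transcripts of Sod2, 1 starts 993 bases farther upstream than the RefSeq start. TTGCNNAA (9.56% of windows) and TGACNNNGC (10.2%) were in none of the 6.

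Sod2, a gene that NF-kB is known to induce in many cell types, did not differ detectably. Sod2 (ENSMUSG00000006818, chromosome 17, 13006846 to 13040063) had 35.4 and 43.2 CPM in the controls against 44.7, 38.1 and 37.7 CPM in A20 deletion replicates 1, 2 and 3. The groups overlapped, and the controls spanned a wider range than A20 deletion replicates 2 and 3. The levels were 39.3 ± 5.52 and 40.2 ± 3.93 CPM (SD, n = 2 and 3; log2 0.03, SE 0.18, edgeR adjusted p = 0.932).

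**Figure D3:**
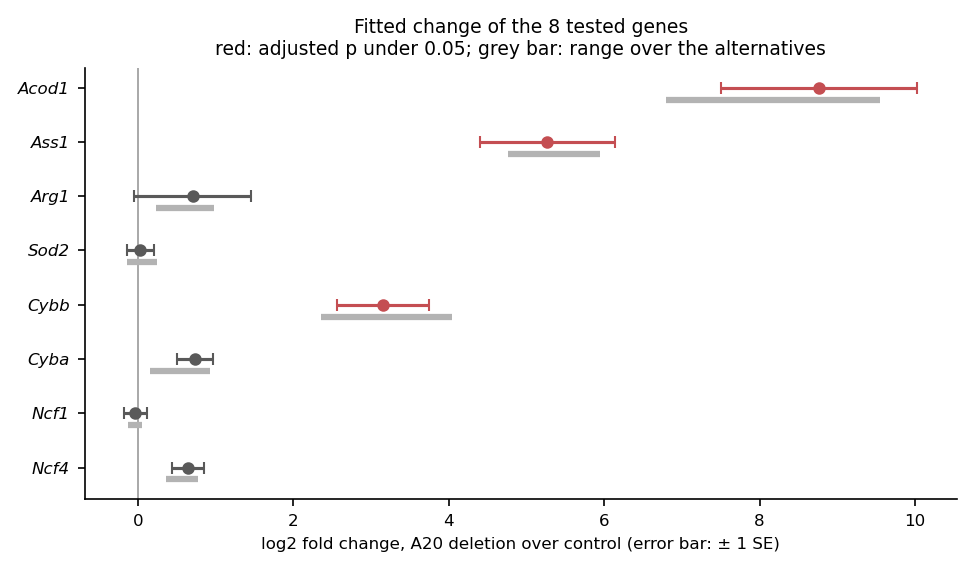
Log2 fold change (horizontal axis, A20 deletion over control) of the 8 tested genes with ± 1 SE, red where the adjusted p was under 0.05, and the range over the alternative fits as a grey bar. Acod1, Ass1 and Cybb lie to the right of 3, Cyba and Ncf4 below 1, and Sod2 and Ncf1 at 0. The fitted value of Acod1 depends on the prior count, since both controls were at 0.

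Likeness to other genes was measured as the root mean square difference of log2 CPM, each gene centred on its mean over the 5 libraries, among 11435 named genes. It was computed for the 5 members whose average log2 CPM reached 3. Nearest to Cybb were Mmp25, a membrane-anchored metalloproteinase (0.0829), and the interferon-induced Ifi207 (0.167) and Ifit2 (0.19). Ifit2, for example, stood at 18.4 and 20.7 CPM in the controls against 244.7, 92.2 and 120.1 CPM in the A20 deletion libraries. Nearest to Cyba were Anapc13 (0.0559), Nbdy (0.0568) and Atp5h (0.0606), and nearest to Ncf4 were Slc25a4 (0.022), Zfp58 (0.0256) and Ndufa12 (0.0263). Nearest to Ncf1 were Hdac5 (0.0211), Rala (0.025) and Cap1 (0.0269), and nearest to Sod2 were Copg2 (0.0215), Slc39a11 (0.0287) and Tsen54 (0.0374). Among the 255 genes called higher 133 (52.2%) were, like Acod1, Ass1 and Cybb, highest in A20 deletion replicate 1.

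The other genes of these pathways are given by list with the same edgeR test, and a gene that did not pass may still differ. Of 19 NADPH oxidase genes 11 were tested and 1 rose (Cybb), and the 7 that are not members had a median log2 fold change of -0.00 against 0.05 over all tested genes. The voltage-gated proton channel Hvcn1, which balances charge during the burst, stood at 260.6 ± 1.29 and 367.9 ± 45.8 CPM (edgeR adjusted p = 0.173). Rac2 stood at 162.4 ± 9.19 and 211 ± 23.8 CPM (adjusted p = 0.251). Cybc1, a chaperone for the Cybb and Cyba pair, stood at 201.7 and 298.9 CPM in the controls against 180.5, 174.4 and 173.6 CPM in the A20 deletion libraries, the opposite side from Cybb (log2 -0.51, adjusted p = 0.211).

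Of 31 genes of arginine and nitric oxide metabolism 23 were tested and 1 rose (Ass1). The median log2 fold change of the 21 that are not members was 0.15, and the largest was 1.63. Asl, which acts after Ass1 in making arginine, stood at 23.3 and 20.6 CPM in the controls against 29.3, 38 and 37.2 CPM in the A20 deletion libraries (edgeR adjusted p = 0.138). The polyamine genes Sat1 (159.5 ± 17.1 against 245.5 ± 8.93 CPM, adjusted p = 0.099) and Odc1 (8.95 ± 2.59 against 19.3 ± 5.78 CPM, adjusted p = 0.144) did not pass by edgeR, and both passed with DESeq2 (adjusted p = 0.0086 and 0.0492), which called 9.07% of all genes. Of 28 genes of itaconate metabolism and the tricarboxylic acid cycle, all tested, 1 rose (Acod1). The other 27 had a median of 0.07. Idh1 was at 50.1 ± 0.297 and 36.5 ± 4.74 CPM (adjusted p = 0.203), Idh3b at 53 ± 7 and 77 ± 9.6 CPM (adjusted p = 0.181), and Sdhb, a subunit of the enzyme that itaconate inhibits, at 69.6 ± 0.698 and 91 ± 15.8 CPM (adjusted p = 0.295).

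None of 35 tested antioxidant genes passed by edgeR, with a median log2 fold change of 0.34 for the 34 besides Sod2. Of the 35, 10 had an unadjusted edgeR p under 0.05, against 2575 of all 12240 tested genes. DESeq2 called 6 of them, and 9.07% of all genes. In 15 of the 34 besides Sod2 the groups did not overlap and the A20 deletion was higher, against 21.8% of all tested genes. In 4 of the 34 the A20 deletion was lower without overlap, against 18.5% of all tested genes. Several of the 15 higher genes have short merged exons, such as Mt1 (1246 bases) and Gpx1 (1441 bases), while Prdx6 (4804 bases) exceeds the median of 4427. A20 deletion replicates 2 and 3 held fewer counts of long genes, and the part of exon length in these shares was not tested. Cytosolic Sod1 stood at 67.2 and 58.2 CPM in the controls against 91, 116.1 and 151.6 CPM in the A20 deletion libraries, so the groups did not overlap (log2 0.93, SE 0.24, edgeR adjusted p = 0.109). The peroxiredoxins Prdx5 (120.4 ± 4.75 against 214.1 ± 27.6 CPM, adjusted p = 0.0631) and Prdx1 (63.1 ± 3.78 against 98.3 ± 2 CPM, adjusted p = 0.0868) were likewise separate. DESeq2 called all 3 (adjusted p = 0.015, 0.000792 and 0.00406). Without A20 deletion replicate 1 edgeR called 16 genes of this list, Sod1, Prdx1 and Prdx5 among them. That fit called 32.4% of all genes.

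None of 14 tested genes linked with alternative activation, the list that holds Arg1, passed by edgeR. Of the 14, 4 had an unadjusted edgeR p under 0.05, against 2575 of all 12240 tested genes. DESeq2 called 4 of them, and 9.07% of all genes. The lectin Clec10a stood at 1.16 ± 0.535 and 5.55 ± 2.01 CPM (edgeR adjusted p = 0.0868) and the chemokine Ccl22 at 0.423 ± 0.508 and 3.19 ± 0.593 CPM (adjusted p = 0.15). The transcription factor Klf4 stood at 21.1 ± 8.55 and 75.1 ± 39.6 CPM (edgeR adjusted p = 0.141). Its A20 deletion replicate 1 (29.8 CPM) lay close to control replicate 1 (27.1 CPM), and replicates 2 and 3 were at 103 and 92.5 CPM. The median log2 fold change of the 13 genes besides Arg1 was 0.58. In 5 of the 13 the groups did not overlap with the A20 deletion higher, against 21.8% of all tested genes. In 0 of the 13 it was lower without overlap, against 18.5%.

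**Figure D4:**
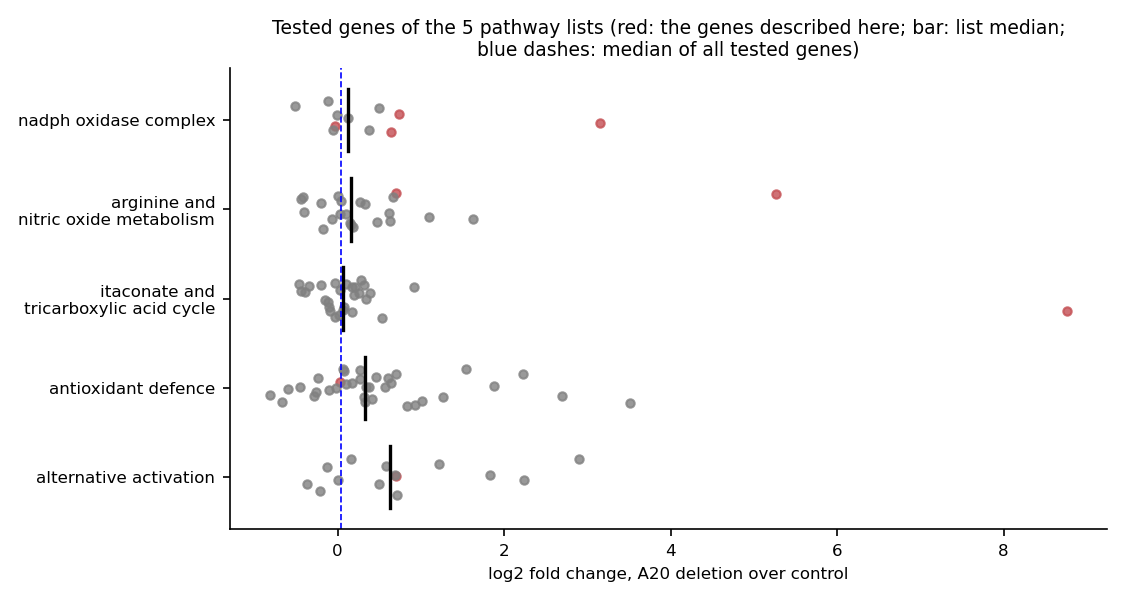
Log2 fold change (horizontal axis, A20 deletion over control) of every tested gene of the 5 pathway lists, with the members in red, the list median as a bar and the median of all tested genes (0.05) as a dashed line. Acod1, Ass1 and Cybb are the points farthest to the right in their lists.

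Monocytes and neutrophils can also express Acod1 and the oxidase subunits, so the markers of those cells are given beside them. Of 9 tested monocyte markers 3 were higher (Plac8, Itgal and Ms4a4c). Ms4a4c stood at 4.55 and 3.46 CPM in the controls against 53.5, 31.1 and 37.2 CPM in the A20 deletion libraries. The list summed to 323 and 64.3 CPM in the controls and to 441.7 to 494.6 CPM in the A20 deletion, with none at 0 in all libraries. Much of each sum was Nr4a1, the highest member. It had 293.2 and 31 CPM in the controls and 342.1, 367.1 and 382.2 CPM in the A20 deletion libraries. Ly6c2 and Ccr2, chosen after their values were seen, went opposite ways: Ly6c2 had 1 and 0 counts in the controls and 12, 7 and 12 in the A20 deletion libraries, and Ccr2 had 162 and 128 counts against 94, 66 and 54. Their part in the rise of Cybb and Acod1 was not tested.

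Of 8 tested neutrophil markers none passed by edgeR. The 15 genes summed to 244.3 and 243.6 CPM in the controls and to 342.8 to 367.3 CPM in the A20 deletion libraries, mostly from Csf3r, which microglia also express. Of the 15, 3 and 8 had 0 counts in control replicates 1 and 2, and 2, 9 and 9 in A20 deletion replicates 1, 2 and 3. The defining markers Ly6g, Mpo and Elane were among those at 0 in A20 deletion replicates 2 and 3. Others were counted there: Mmp9 had 0 and 7 counts in the controls and 6, 15 and 31 in the A20 deletion libraries, and Cxcr2 had 7 and 1 against 3, 12 and 22. The part of neutrophil RNA in the levels of Cybb and Acod1 was not tested. T and NK cell markers summed to 0.925 and 1.6 CPM in the controls, where 12 of 16 were at 0, and to 6.21 to 10.8 CPM in the A20 deletion libraries. Astrocytes can express Ass1, and their 7 markers summed to 176.1 and 255.1 CPM in the controls and to 196.7, 409 and 411.9 CPM in A20 deletion replicates 1, 2 and 3, with 1 called higher. This was Aldh1l1, which had 1.64 and 2.31 CPM in the controls and 8.06, 9.67 and 17.9 CPM in the A20 deletion libraries. The 8 endothelial markers summed to 66.8 and 72.6 CPM in the controls. In A20 deletion replicates 1, 2 and 3 they summed to 127.4, 66.3 and 64.2 CPM. The 7 tested had a median log2 fold change of 1.98, with Pecam1 alone lower (log2 -0.80), and none passed by edgeR. The parts of astrocyte and endothelial RNA in the level of Ass1 were not tested. Border macrophage markers summed to 82.6 and 167.8 CPM in the controls and to 134 to 249.2 CPM in the A20 deletion libraries, with none called.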

How the data were processed

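The authors deposited raw counts for each Ensembl gene. Per the submitters' processing notes, the tools were STAR 2.4.0j, DESeq2 1.22.1 and featureCounts, with genome build GRCm38. Which annotation and strand setting were used, and how multiply mapped reads were handled, is not given in the sources used here. Symbols, positions and merged exon lengths came from GENCODE M21 (40254 of 41388 identifiers matched), and promoter sequences from RefSeq.

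The counts were fitted with edgeR 4.0.16 (R 4.3.3) after filterByExpr (minimum count 10, minimum total 15) and TMM scaling, by the quasi-likelihood test (two-sided, 2 against 3 libraries, no covariate) on all 12240 genes kept, with Benjamini-Hochberg adjustment over all of them and a threshold of 0.05. The SE of a log2 fold change was derived from F and is approximate. Library totals lay between 9726334 and 15275199, and every pair of libraries differed beyond sampling noise (chi-square per degree of freedom 14.4 to 131). The procedure was tested on simulated data drawn from these libraries. With the threshold at 0.05, 36 of its 353 calls there (10.2%) were false. Recovery rose with the size of the simulated effect: 1.19% (fold 1.5), 16.7% (fold 2), 77.9% (fold 4). Most simulated effects up to fold 2 were therefore missed, so a gene that did not pass may still differ by that much.

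The members and lists were chosen with earlier results of these data known. Named are all 9 members, the called genes of the 5 pathway lists and otherwise the 3 non-members with the smallest p, the highest gene of each marker list, the 3 genes nearest in pattern to each member whose average log2 CPM reached 3, and Tnfaip3. 1 further gene is not reported here. Other genes are marked where they appear; single marker genes were chosen after their values were seen. Alternatives were other scalings and filters, DESeq2 1.42.0, limma-voom (limma 3.58.1), a robust fit, a threshold of 0.01, a minimum log2 fold change of 1, a block for the replicate number, fits without single libraries, and, added after the data were seen, removal of the exon length trend and a term for Xist.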

Additional observations from a re-analysis of the deposited data

How the results depend on the processing

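The number of the 9 genes called, 3, ranged from 0 to 5 when single libraries were left out, and that of all genes, 317, from 0 to 3923. The same ranges were 0 to 5 for the oxidase list (1 called), 0 to 8 for arginine (1), 0 to 6 for itaconate (1), 0 to 16 for antioxidants (0) and 0 to 5 for alternative activation (0). With 1 control left the spread rests on the A20 deletion libraries. Without a filter 1701 genes were called in all, and 2, 3, 7 and 4 in the oxidase, arginine, antioxidant and alternative lists. With the stricter filter (at least 5 CPM in 2 libraries), which drops Acod1 and Ass1, 1 of the 9 genes was called, 0 in the arginine and itaconate lists and 1 antioxidant gene. DESeq2 called 1110 genes in all, and 3, 6 and 4 in the arginine, antioxidant and alternative lists. With limma-voom 211 genes were called, and at an adjusted p under 0.01 58 genes. In both, the 9 genes and the oxidase, arginine and itaconate lists had 0, and with a robust fit the oxidase list had 0. With A20 deletion replicates 2 and 3 both left out, and with the length trend removed, 2 arginine genes were called. With a term for Xist 824 genes were called, with 2 oxidase, 4 arginine, 2 antioxidant and 2 alternative genes.

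Acod1, Ass1 and Cybb kept their direction in every fit that tested them, which their separate groups largely fix when a library is left out. Values near 0 changed sign. Ncf1 stood at 0.029 with upper quartile scaling, 0.016 with the stricter filter and 0.054 without A20 deletion replicates 2 and 3, and between -0.14 and 0.00073 with single libraries left out. Sod2 stood at -0.0079 with library size alone, -0.0064 without a filter and between -0.15 and 0.13 with single libraries left out. Tnfaip3 ranged from -0.62 to 1.65 in the latter fits. With the replicate number as a block 260 genes and 3 of the 9 genes were called. No label pairs the libraries, and those with number 1 are also the ones with Xist counts. Deviations from the group means correlated at 0.26 for number 1 and 0.167 for number 2, over genes. Control replicate 2 correlated more with A20 deletion replicate 3, at 0.217. With 2 controls their deviations mirror each other, so these values are not separate and do not show a pairing. Depth limits Acod1, Ass1, Arg1 and Nos2.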

Other observations

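Several neutrophil granule transcripts were highest in the libraries with replicate number 1, which are also the only ones with Xist counts, so number and Xist status cannot be told apart. Ngp had 76 and 1 counts in the controls and 26, 0 and 0 counts in A20 deletion replicates 1, 2 and 3. Ltf had 53 and 0 counts in the controls and 24, 0 and 0 counts in the A20 deletion libraries, and Camp had 19 and 2 against 6, 0 and 0. S100a9 had 93 and 2 counts in the controls and 39, 1 and 7 in the A20 deletion libraries. Lcn2 had 24 and 0 counts in the controls and 140, 1 and 3 in the A20 deletion libraries. These genes were chosen after their values were seen, and other genes of the same list, such as Mmp9 and Cxcr2, were highest in A20 deletion replicate 3.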
